A study of Mus musculus with 24 samples.

Results

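The genes described here encode the proteins of the mitochondrial ribosome in splenic CD4+ T cells. They were taken as every protein-coding gene of the count table whose symbol begins with Mrpl or Mrps and a number, which gave 78 of 55414 genes in the table. Of these, 49 carry a large-subunit symbol (Mrpl) and 29 a small-subunit symbol (Mrps). After a filter on low counts 74 could be tested, 47 of the large and 27 of the small subunit.

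The libraries came from Tconv CD4+ cells (CD4+ CD25-, called TE in the sample labels) that the study isolated from spleens with magnetic beads. Donors were conplastic mice with a C57BL/6J nucleus in both strains. Their mitochondrial DNA (mtDNA) was that of C57BL/6J, labelled WT and called B6 here, or that of the NZB strain. Cells were resting (RES) or activated (ACT), which the study did with beads that engage CD3 and CD28, together with IL-2, for 72 h, and each of the 4 groups held 6 libraries. Most experiments of the study used males of 2 to 3 months, and the sources used here do not give age or sex for the donors of these libraries alone. Nothing states that the 6 libraries of a group came from separate animals, and the study's own captions for these comparisons give a smaller number per model than 6, so p-values measure the spread between these libraries, which may be technical.

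The mitochondrial ribosome, or mitoribosome, makes the few proteins encoded in mtDNA, all of them subunits of the respiratory chain or of the ATP synthase. Its RNA comes from mtDNA, but its proteins are encoded in the nucleus, made in the cytosol and imported. The genes described here therefore have the same nuclear sequence background in both strains, while the tRNAs and rRNAs with which their products work come from the B6 or the NZB mtDNA. T cells that leave rest enlarge their mitochondria, and the comparisons ask how the genes of this machine respond to activation and whether the mtDNA haplotype changes that response.

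Libraries held 51409 to 6449395 counts of unique molecular identifiers (UMIs, 1 per captured RNA molecule), and 270 to 46239 of these fell on the 78 genes. The library with the fewest was resting NZB replicate 2, in which 65 of the 78 genes had a count and 1 UMI was worth 16.9 CPM. CPM are counts per 1000000 counts, taken on TMM-scaled library sizes for single genes and on plain library totals for sums over genes. T cell markers summed to 3545 to 7058 CPM over all libraries, and the T cell activation markers (Il2ra, Tnfrsf4, Tfrc, Mki67) to 51.4 to 209 at rest and 285 to 742 after activation. The libraries also held RNA of other cells. Myeloid markers summed to 422 to 2693 CPM at rest and 5.68 to 108 after activation, granulocyte markers to 288 to 17595 and 5.38 to 175, erythroid markers to 86.8 to 6902 and 2.39 to 173, and NK cell markers to 5.16 to 38.9 and 0.0 to 3.59. B cell markers summed to 4705 to 19977 at rest and 1120 to 6482 after activation, CD8 T cell markers to 19.5 to 133 and 86.8 to 564, and platelet markers to 1.82 to 43.6 and 14.0 to 481. Ncr1 of the NK list and Fcgr1 of the myeloid list were each at 0 in 14 libraries and Ppbp of the platelet list in 17. These lists move with activation, and their part in the results was not tested. In bulk RNA, fewer cells of a type and less RNA per cell cannot be told apart.

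Some promoters of the family hold the same short motifs, and the part of these motifs in the responses was not tested. RefSeq start-site windows of 300 bases on GRCm38.p6, from 250 bases before the start to 50 after it, were found for 69 of the 78 genes. With 1 window per gene, the ETS-type motif CCGGAAG was on either strand in 36.2% of the 69 windows, against 11.9% of 17491 windows of protein-coding genes and 8.86% of all 32851 windows in the table. The NRF1-type motif GCGCATGCG was in 10.1% against 2.41% of protein-coding windows and 1.75% of all windows, and the YY1-type motif AAGATGGCG in 11.6% against 1.94% and 1.4%. The E-box CACGTG, which MYC can bind, was in 7.25% against 7.9% and 7.15%. No motif contains another of the 4, a place that matched on both strands counted once, and any of the 4 was in 53.6% of the 69 windows and in 21.6% of the protein-coding windows. The stretches below of 28 bases each come from the 3 genes with the largest fitted rise on activation of NZB cells that hold the ETS-type motif, from Mrpl20 with its E-box, from Mrpl52, whose level fell in B6 cells, from Mrps18a, which holds the ETS-type and the YY1-type motif, and from Mrpl9 with its NRF1-type motif. Capitals mark the motif, and each is written 5′ to 3′ on the strand of its gene.
Mrpl51 (ETS), chr6:125192100-125192127, plus strand: aggggctaaaCCGGAAGtatttgactgg
Mrpl27 (ETS), chr11:94653726-94653753, plus strand: tccgcaagacCCGGAAGtagatctatcc
Mrps22 (ETS), chr9:98601673-98601700, minus strand: acctctcgagCCGGAAGttgctctatcg
Mrpl52 (ETS, reverse strand), chr14:54426852-54426879, plus strand: aagatgtcggCTTCCGGttttcccggca
Mrps18a (ETS), chr17:46110968-46110995, plus strand: cacccctgctCCGGAAGcggaagtgcac
Mrps18a (YY1), chr17:46111006-46111033, plus strand: gtgcgttccAAGATGGCGgccctcaggg
Mrpl20 (E-box), chr4:155802834-155802861, plus strand: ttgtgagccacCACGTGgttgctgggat
Mrpl9 (NRF1), chr3:94443299-94443326, plus strand: ggcgcagctGCGCATGCGcggggtcctt

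The ETS-type motif was in 38.1% of 42 windows of genes that rose in both haplotypes and in 33.3% of the 27 other windows. The window of Mrpl52 held it at 2 places. These are letters in a window and not sites of binding.

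As a summed level, mitoribosomal protein RNA was higher in every activated library than in every resting library of the same haplotype. The 49 large-subunit genes summed to 3181, 3737 and 4407 CPM (lowest, median and highest) in resting B6 cells and to 4999, 5176 and 5419 in activated B6 cells. In NZB cells the same genes summed to 2521, 3221 and 3560 at rest and to 4989, 5479 and 5810 after activation. The groups at rest and after activation did not overlap. The 29 small-subunit genes followed them, with 1438, 1576 and 1883 CPM in resting and 2233, 2316 and 2465 in activated B6 cells, and 1234, 1457 and 1692 in resting and 2180, 2489 and 2594 in activated NZB cells. The mean of all 78 genes went from 5362 ± 612 (SD, n = 6) to 7538 ± 249 in B6 cells, a ratio of 1.41, and from 4643 ± 519 to 7854 ± 502 in NZB cells, a ratio of 1.69. Both subunits kept nearly one proportion, since the small-subunit sum was 0.422 to 0.49 of the large-subunit sum over the 24 libraries. Resting NZB replicate 5 was the library with the lowest sum (3754 CPM) and also held the most cytosolic ribosomal protein RNA.

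**Figure D1:**
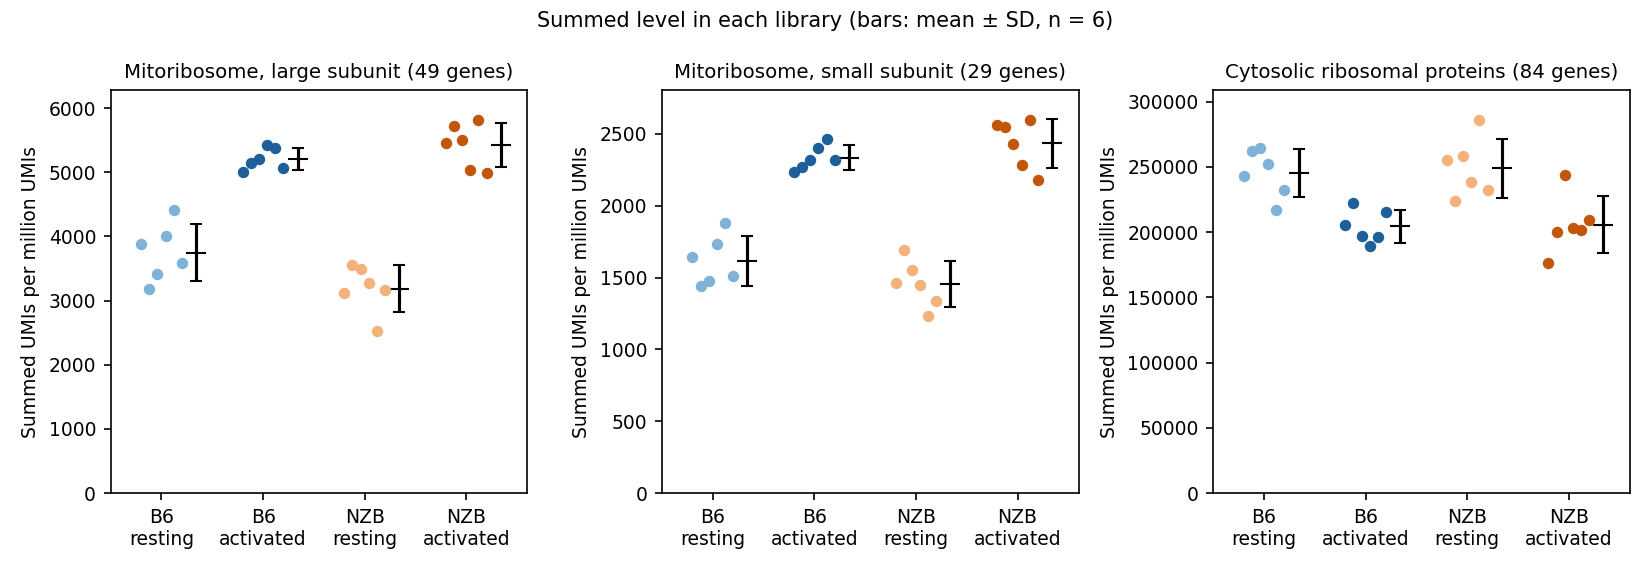
Summed level in CPM in each library (points) with the mean and SD of 6 libraries (bars) for the large subunit, the small subunit and the cytosolic ribosomal proteins, by mtDNA haplotype and state. Both mitoribosomal sums were higher in each activated library than in the resting libraries of the same haplotype, and the cytosolic sum had a lower mean after activation in both haplotypes.

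Cytosolic ribosomal proteins, which make up the ribosome outside mitochondria, went the other way. Their 84 genes summed to 216791, 247457 and 264538 CPM in resting and 189429, 201389 and 222028 in activated B6 cells, so these groups overlapped. Of 81 tested, 2 rose and 36 fell in B6 cells (median log2 fold change -0.39) and 3 rose and 33 fell in NZB cells (median -0.33). Among all genes tested 24.5% fell in B6 and 28.4% in NZB cells. With library totals in place of TMM scaling, 4 rose and 34 fell in B6 cells and 6 rose and 32 fell in NZB cells. Mitoribosomal protein RNA amounted to 1.31% to 2.9% of cytosolic ribosomal protein RNA in resting libraries and to 3.26% to 4.55% in activated ones.

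In B6 cells, activation raised 49 of the 74 genes tested, lowered 3 and left 22 without a call. A call here is an adjusted p of 0.05 or less (edgeR, quasi-likelihood), and p-values were adjusted by Benjamini-Hochberg across the 10566 genes that entered the fit. Among all genes tested 22.4% rose and 24.5% fell. The rises were 31 large-subunit and 18 small-subunit genes, and the 3 falls were all of large-subunit genes. The median log2 fold change was 0.42 for the large subunit and 0.38 for the small, against -0.03 over all genes tested. The changes were small: Mrpl27 was the 1 gene that also passed a log2 fold change of 1, which 7.06% of all genes did. For 32 of the 74 genes each of the 6 activated B6 libraries lay above each of the 6 resting ones, against 15.4% of all genes. Leaving out each of the 24 libraries in turn gave 42 to 52 rises and 1 to 4 falls, and 40 of the 49 rises were called in all 24 of these fits.

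In NZB cells 64 of the 74 rose, none fell and 10 were not called, where 25.2% of all genes rose and 28.4% fell. The rises were 41 large-subunit and 23 small-subunit genes, with a median log2 fold change of 0.77 for the large and 0.74 for the small subunit and of -0.06 over all genes. Of these, 17 passed a log2 fold change of 1 (12 of the large and 5 of the small subunit), where 9.46% of all genes did. The activated NZB libraries lay above the resting ones without overlap for 36 of 74 genes, against 11.9% of all genes. Without the smallest library this was 47 of 74, against 14.1%. Leaving out 1 library at a time gave 60 to 65 rises and no fall, and 59 of the 64 rises were called in every such fit. Over the 21 libraries that remain without resting NZB replicates 2 and 6 and activated NZB replicate 6, a set that earlier work on these data matched to the study's own mean counts, 62 genes rose and 1 (Mrpl24, log2 fold change -0.24, adjusted p = 0.048) fell. That match was not checked here, and no source used here gives a reason for leaving the 3 libraries out.

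The libraries fell into 3 sets of 8 by their reads per UMI (1.88 to 1.96, 2.11 to 2.24 and 2.68 to 2.8). These sets were made from the data, no sample label names them, and they are unevenly spread over the conditions. Activated B6 cells held 5 libraries of the first set and resting B6 cells none. Within the second set, with 4 resting libraries and 1 activated, the median B6 difference was 0.51 for the large subunit and 0.46 for the small. Within the 3 sets, the NZB medians were 0.63, 0.7 and 0.82 for the large subunit and 0.53, 0.62 and 0.87 for the small. The medians of all genes were -0.02, -0.04 and 0.19. These NZB values rest on 1, 1 and 4 resting libraries and on 2 activated libraries in each set. The 4 resting libraries of the third set include the one with the fewest UMIs. With the set as a term in the fit, 32 genes rose and 1 fell in B6 cells, and 62 rose and none fell in NZB cells. With library totals in place of TMM scaling the median of all genes went from -0.03 to 0.1 in B6 cells and from -0.06 to 0.06 in NZB cells, and 57 genes rose and 1 fell in B6 cells.

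**Figure D2:**
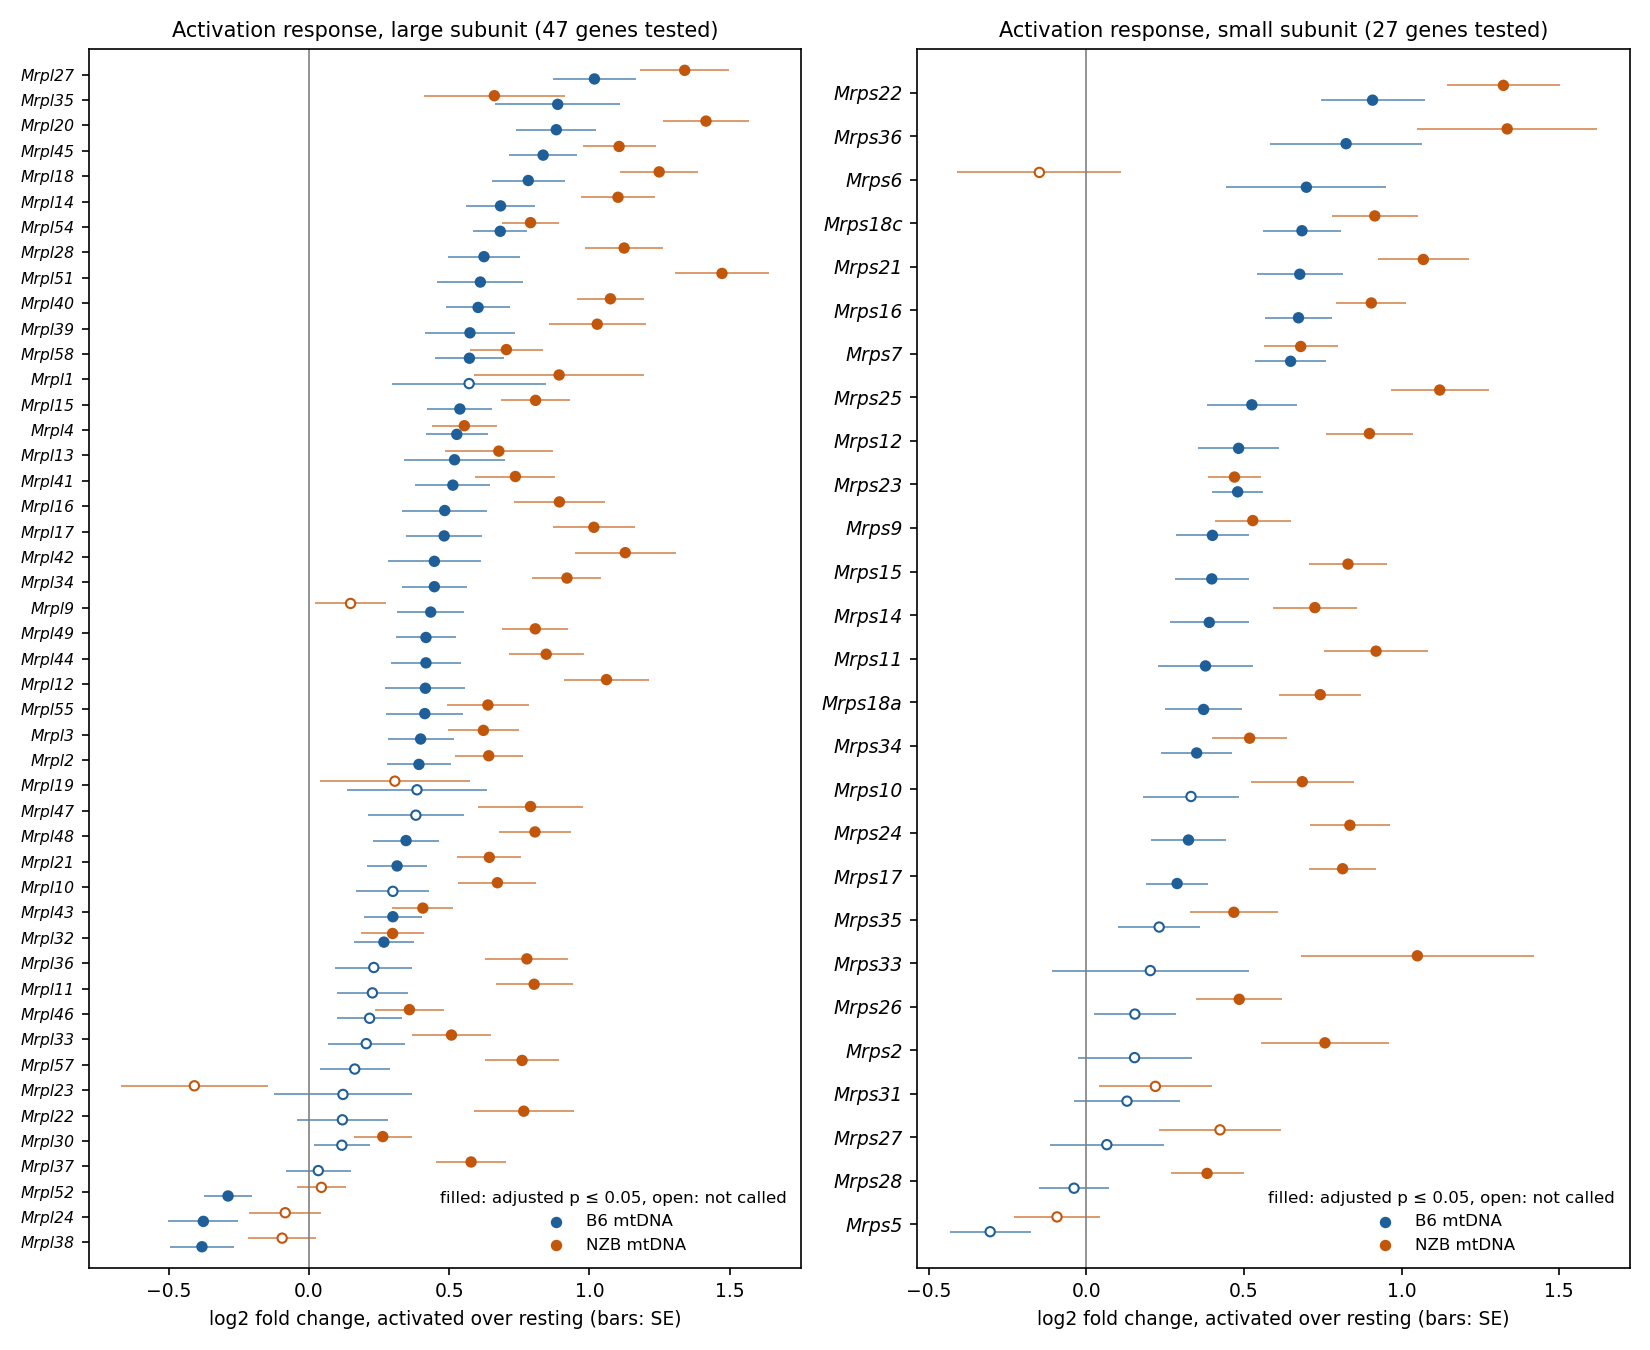
Log2 fold change on activation (x axis, bars are SE) of each of the 74 genes tested (y axis), large subunit left and small subunit right, in B6 (blue) and NZB (orange) mtDNA cells, ordered by the B6 value. Filled points are called at an adjusted p of at most 0.05, and most points lie right of 0, with Mrpl24, Mrpl38 and Mrpl52 called to the left of 0 in B6 cells.

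Among the large-subunit proteins, Mrpl27 had the largest fitted change in B6 cells. It is the counterpart of bacterial L27, which lies close to the catalytic centre where the peptide bond forms, and its gene is at chr11:94544584-94552984 (GRCm39, plus strand). Its level was 30.1, 43.0 and 49.5 CPM (lowest, median and highest) in resting and 79.3, 83.6 and 93.7 in activated B6 cells. In NZB cells it was 16.9, 35.3 and 44.8 CPM at rest and 69.9, 96.1 and 114 after activation. No activated library fell to the level of a resting one in either haplotype. The log2 fold change was 1.02 ± 0.15 (SE, n = 6 per group, adjusted p from edgeR 3.8e-06) in B6 and 1.34 ± 0.16 (adjusted p = 1.45e-07) in NZB cells.

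Mrpl51, a protein with no bacterial counterpart, had the largest fitted change in NZB cells. Its gene is at chr6:125168764-125173232 (GRCm39, plus strand). Resting NZB libraries held 25.2, 33.5 and 40.2 CPM and activated ones 66.3, 91.3 and 111, with no overlap. Resting B6 libraries held 33.8, 48.0 and 59.9 CPM and activated ones 63.1, 70.2 and 81.4. The log2 fold change was 1.47 ± 0.17 (SE, adjusted p from edgeR 8.69e-08) in NZB and 0.61 ± 0.15 (adjusted p = 0.00187) in B6 cells.

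Mrpl20 and Mrpl18 were next among the abundant genes. Mrpl20, whose bacterial counterpart binds rRNA early in assembly, was at 82.8, 113 and 158 CPM in resting and 189, 214 and 225 in activated B6 cells, and at 33.9, 85.1 and 112 in resting and 180, 241 and 278 in activated NZB cells. Its log2 fold change was 0.88 ± 0.14 (SE) in B6 and 1.42 ± 0.15 in NZB cells. Mrpl18, a protein of the central protuberance of the large subunit, was at 118, 134 and 161 CPM in resting and 189, 239 and 271 in activated B6 cells and rose by 0.78 ± 0.13 there and by 1.25 ± 0.14 in NZB cells. In both genes the activated and resting libraries did not overlap within a haplotype.

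The other genes of the large subunit with the highest fitted values in one haplotype or both were Mrpl45, Mrpl14, Mrpl28, Mrpl42 and Mrpl35. Mrpl45, which anchors the ribosome to the inner membrane at the exit of the peptide tunnel, rose by 0.83 in B6 and 1.11 in NZB cells on the log2 scale. Mrpl14, on which the assembly factor Malsu1 docks, rose by 0.68 and 1.1. Mrpl28 rose by 0.62 and 1.12 and Mrpl42 by 0.45 and 1.13. Mrpl35 was read from very few molecules, with 2.65 to 4.25 CPM in resting and 3.98 to 8.59 in activated B6 cells, which overlapped, and rose by 0.89 ± 0.22 (SE) in B6 and by 0.66 ± 0.25 in NZB cells.

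The most abundant genes of the family behaved unevenly. Counts of 3′ ends are molecules and do not scale with transcript length, so levels of different genes are given here as CPM only. Mean levels over the 24 libraries ran from 3.32 to 327 CPM for the genes tested. Mrpl52 was highest (327 CPM), followed by Mrpl54, Mrpl30, Mrps16 and Mrpl18. Mrpl54 went from a median of 216 to 358 CPM in B6 cells and from 207 to 348 in NZB cells, with log2 fold changes of 0.68 and 0.79. Mrps16 went from 155 to 258 and from 139 to 257, with 0.67 and 0.9. Mrpl30 had a log2 fold change of 0.12 in B6 cells, which was not called (adjusted p from edgeR 0.35), and 0.26 in NZB cells (adjusted p = 0.0348).

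Mrpl52 fell in B6 cells. It is a protein without bacterial counterpart in the central protuberance, with its gene at chr14:54664360-54668593 (GRCm39, plus strand). Resting B6 libraries held 340, 371 and 417 CPM and activated ones 296, 300 and 317, without overlap. In NZB cells it was at 287, 310 and 340 CPM at rest and at 269, 325 and 365 after activation, and these groups overlapped. The log2 fold change was -0.29 ± 0.08 (SE, adjusted p from edgeR 0.00669) in B6 and 0.04 ± 0.09 (adjusted p = 0.699) in NZB cells. With library totals as the scale the B6 value was -0.16 (adjusted p = 0.13) and no longer called. An annotated non-coding RNA lies opposite the end of Mrpl52, and no source used here states that strand entered the counting.

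Mrpl24 and Mrpl38 fell as well in B6 cells. Mrpl24 is the counterpart of bacterial L24 near the exit of the peptide tunnel, and its level was 175, 180 and 188 CPM in resting and 132, 136 and 151 in activated B6 cells, without overlap, for a log2 fold change of -0.38 ± 0.12 (SE, adjusted p from edgeR 0.0154). In NZB cells it was not called (log2 fold change -0.08, adjusted p = 0.599), and resting replicate 2 held 50.8 CPM where the other 5 resting libraries held 124 to 192. Mrpl38, of the central protuberance, was at 58.4, 65.2 and 78.6 CPM in resting and 42.4, 49.4 and 59.8 in activated B6 cells, which overlapped, with a log2 fold change of -0.38 ± 0.11 (adjusted p = 0.008) and of -0.1 in NZB cells (adjusted p = 0.527). Without resting B6 replicate 3 neither fall in B6 cells was called (adjusted p = 0.0522 for Mrpl24 and 0.0556 for Mrpl38). With library totals as the scale Mrpl24 was not called (-0.25, adjusted p = 0.0915) and Mrpl38 still was (-0.25, adjusted p = 0.0417). With the set by reads per UMI as a term, Mrpl52 was the 1 fall called, and neither Mrpl24 nor Mrpl38 was. The replicate block by label number kept the calls of Mrpl24 and Mrpl52 and lost that of Mrpl38. A protein-coding gene, Mettl25b, lies opposite the end of Mrpl24.

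Among large-subunit genes called as rising, the lowest value was 0.27 for Mrpl32 in B6 cells and 0.26 for Mrpl30 in NZB cells, where Mrpl32 (0.3), Mrpl46 (0.36) and Mrpl43 (0.41) came next. Mrpl16, a protein near the catalytic centre, rose from a median of 43.4 to 59.6 CPM in B6 cells and from 34.3 to 61.0 in NZB cells. The log2 fold changes were 0.48 (adjusted p from edgeR 0.0107) and 0.89 (adjusted p = 5.82e-05). The study lists Mrpl16 among genes raised by activation in NZB Tconv cells only, where here the rise was called in both haplotypes. The study used DESeq2, and its caption gives fewer samples per model. For NZB Tconv cells that caption labels genes changed by more than a log2 fold change of 1. The calls here needed no such change, and neither Mrpl16 value reached it, so the 2 lists do not share a threshold. Mrpl58, known as ICT1, releases peptides from stalled mitoribosomes, and rose by 0.57 and 0.7. Mrpl12, whose bacterial counterpart forms the stalk that binds translation factors, rose by 0.42 in B6 and 1.06 in NZB cells.

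In the small subunit, Mrps22 had the highest fitted value in B6 cells. It is a protein without bacterial counterpart whose human gene is mutated in mitochondrial disease, at chr9:98470779-98483732 (GRCm39, minus strand). Levels were 25.2, 28.6 and 39.9 CPM in resting and 48.9, 57.2 and 65.5 in activated B6 cells. In NZB cells they were 16.9, 22.4 and 45.4 at rest and 52.5, 70.3 and 81.1 after activation. Again the 2 states did not overlap in either haplotype, and the log2 fold changes were 0.91 ± 0.16 (SE, adjusted p from edgeR 7.14e-05) and 1.32 ± 0.18 (adjusted p = 1.06e-06).

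Mrps25 rose by 0.53 in B6 and 1.12 in NZB cells on the log2 scale, and Mrps24 by 0.32 and 0.84. Mrps28 was at -0.04 in B6 cells, which was not called (adjusted p from edgeR 0.792), and rose by 0.38 in NZB cells. Mrps36 carries a mitoribosomal symbol, but its product is now known as a subunit of the 2-oxoglutarate dehydrogenase complex. It was read at 3.38 to 7.05 CPM in resting and 6.73 to 10.7 in activated B6 cells, which overlapped, and rose by 0.82 ± 0.24 (SE) in B6 and 1.33 ± 0.29 in NZB cells.

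The paralogs Mrps18a, Mrps18b and Mrps18c share a bacterial relative, S18, and the product of Mrps18a lies in the large subunit in spite of its symbol. Mrps18a rose by 0.37 in B6 and 0.74 in NZB cells, and Mrps18c by 0.68 and 0.92. Mrps18b had 108 UMIs over all 24 libraries, too few to be tested. The other untested genes were Mrpl50 with 133 UMIs, Mrps30, whose product also lies in the large subunit, with 89, and Mrpl53 with 3. With Mrps18a and Mrps30 counted in the large subunit and Mrps36 left out, the median log2 fold changes were 0.42 and 0.38 in B6 cells and 0.76 and 0.72 in NZB cells for the large and the small subunit.

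The genes were also grouped by origin with a list of symbols, a division made after the values were seen. The list put Mrps28 and Mrps36 among the small-subunit genes without a bacterial counterpart. Universal ribosomal protein names tie Mrps28 to a bacterial protein, and Mrps36 belongs to another complex, as said above. The counts and medians were not redone with these 2 genes moved. Over both subunits together, the 46 tested genes classed as having a bacterial counterpart and the 28 classed as lacking one gave like values. The former had 32 rises and 1 fall in B6 cells and 40 rises in NZB cells (median log2 fold changes 0.4 and 0.76), the latter 17 rises and 2 falls in B6 cells and 24 rises in NZB cells (medians 0.38 and 0.75). Among the 11 small-subunit genes classed as lacking a counterpart, Mrps28 and Mrps36 included, the medians were 0.23 and 0.48. They were 0.39 and 0.79 for the 16 classed as having one. In B6 cells 5 of the 11 and 13 of the 16 rose, and in NZB cells 9 and 14. Over all genes tested 22.4% rose and 24.5% fell in B6 cells, and 25.2% rose and 28.4% fell in NZB cells.

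**Figure D3:**
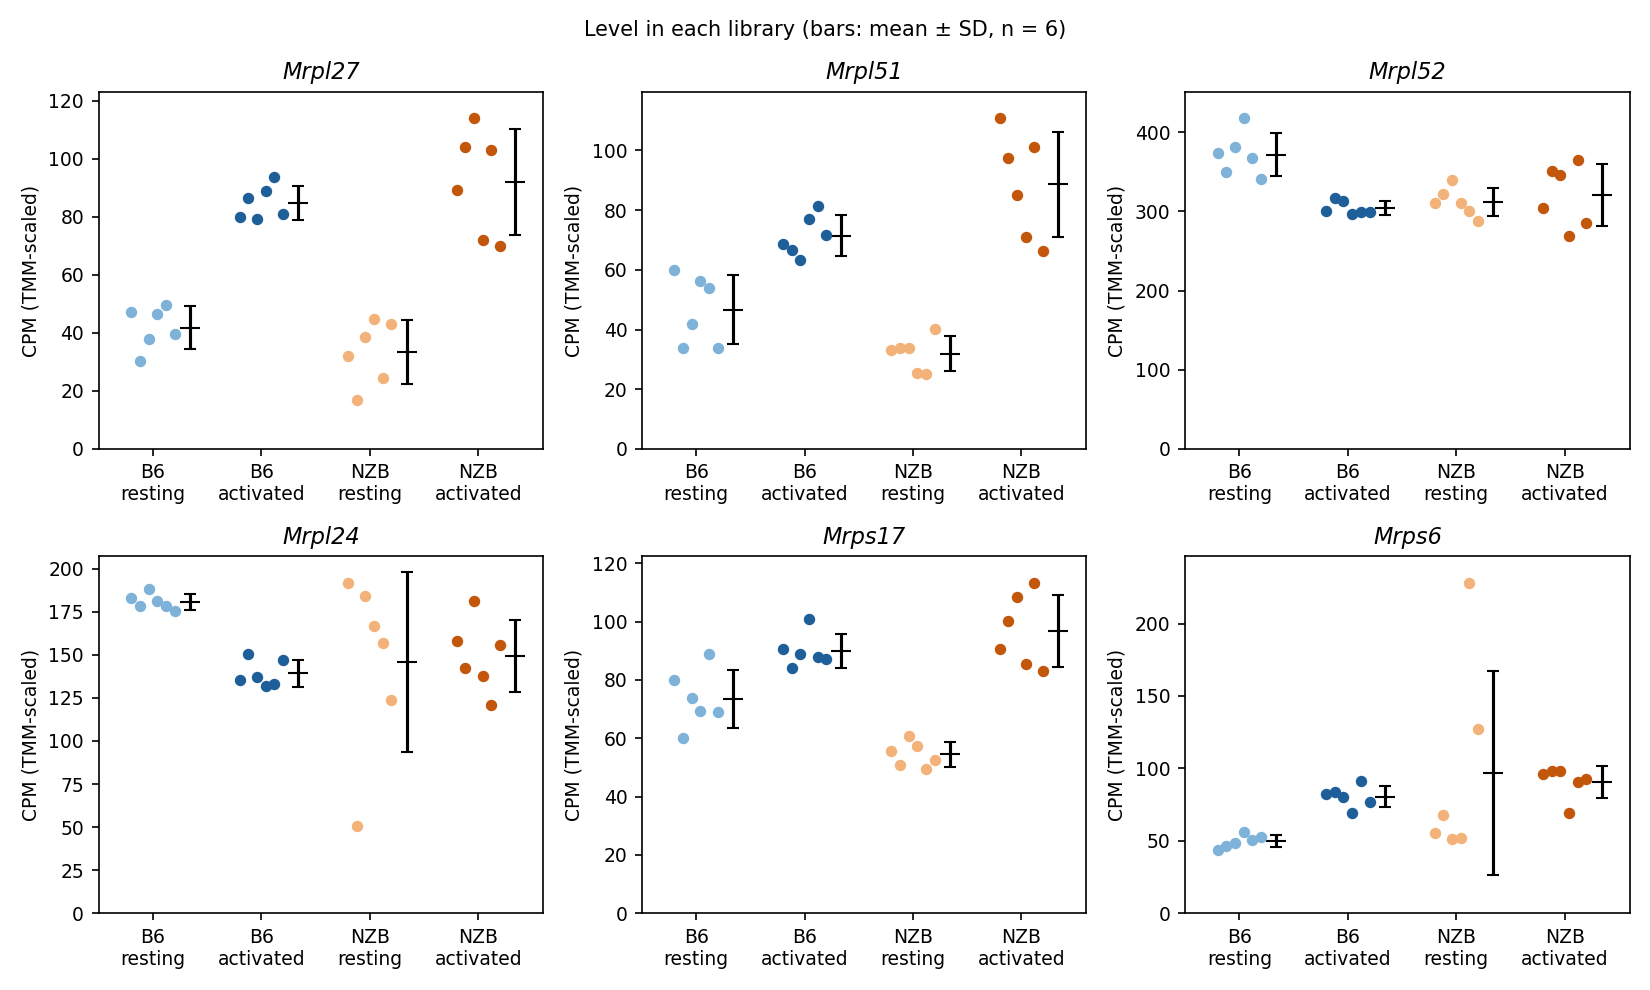
CPM in each library (points) with the mean and SD of 6 libraries (bars) for 6 genes, by mtDNA haplotype and state. Activated and resting libraries separate for Mrpl27 and Mrpl51 in both haplotypes, Mrpl52 and Mrpl24 are lower in activated B6 libraries, Mrps17 is lower in resting NZB than in most resting B6 libraries, and 2 resting NZB libraries of Mrps6 stand above the rest at 127 and 228 CPM.

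The responses of the haplotypes were then set side by side. The 2 responses use separate libraries. The rise was called in both haplotypes for 47 genes, in B6 cells and not in NZB cells for Mrpl9 and Mrps6, and in NZB cells and not in B6 cells for 17. No call was made in either for Mrpl19, Mrpl23, Mrps27, Mrps31 and Mrps5. These classes were not counted over all 10566 genes, of which 22.4% rose in B6 and 25.2% in NZB cells. Whether the 17 and the 2 are unusual therefore cannot be told from them. A call in a single haplotype is also no test of a difference between the responses, and that test is given below. The fitted NZB response was the larger one for 68 of 74 genes, with a median difference of 0.34 on the log2 scale, where 5516 of all 10566 genes had a larger NZB response (median 0.02). Of the 6 exceptions, Mrps6, Mrpl23 and Mrpl9 lay farthest from the line of equal response. Mrpl9 had 0.43 (adjusted p from edgeR 0.00413) in B6 and 0.15 (adjusted p = 0.329) in NZB cells, and Mrpl23, at a mean of 8.28 CPM, had 0.12 and -0.41, neither called.

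**Figure D4:**
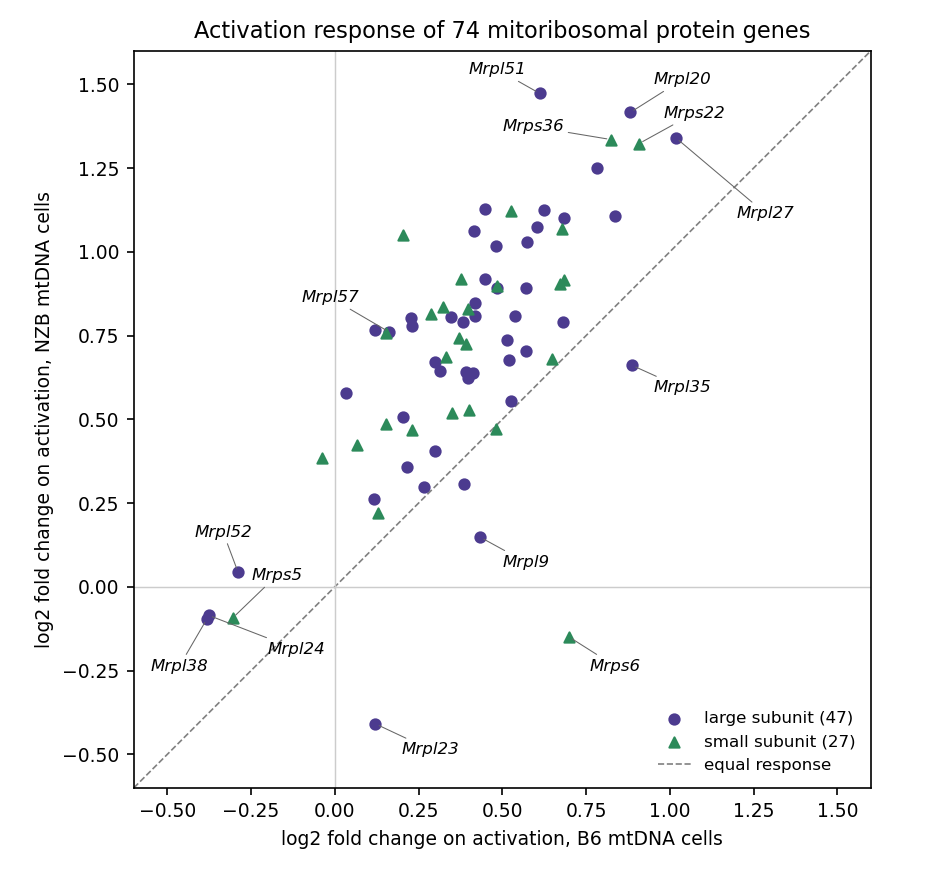
Log2 fold change on activation in B6 (x axis) and NZB (y axis) mtDNA cells for the 74 genes tested, large subunit as circles and small subunit as triangles, with the line of equal response dashed. Of the 74 points 68 lie above the line, and Mrps6 and Mrpl23 lie farthest below it.

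For no single gene did the difference between the responses pass the test over the 24 libraries. The interaction called 0 of 74, and 0.0% of all 10566 genes (edgeR's quasi-likelihood test). At an unadjusted p under 0.05 there were 30 of the 74, 29 with the larger rise in NZB cells, and 1512 of all genes. DESeq2 also called 0 of the 74. The 3 genes with the smallest p-values were Mrpl51 (difference 0.86 ± 0.22, SE), Mrps17 (0.53 ± 0.14) and Mrpl57 (0.6 ± 0.18), each with an adjusted p of 0.207 from edgeR. Over the 21 libraries Mrpl51 (1.04, adjusted p = 0.0439) and Mrpl57 (0.74, adjusted p = 0.0485) were called, where 0.878% of all genes had a called difference in this direction. With the reads-per-UMI set as a further term over these 21 libraries, none of the 74 was called.

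The difference of responses is the activated minus the resting difference between haplotypes, so it holds the resting values by construction. In resting cells the NZB minus B6 difference was negative for 63 of the 74 genes (median -0.24, all genes -0.01), but 1 gene was called lower (Mrps17) and 1 higher (Mrps6), where 0.861% of all genes were called lower and 1.9% higher. At an unadjusted p under 0.05, 32 were lower and 1 was higher, against 966 and 1230 of all 10566 genes. Markers of other cells also differed between the resting groups. The median level was lower in NZB cells for 7 of 7 granulocyte, 6 of 6 erythroid and 5 of 6 myeloid markers and higher for 5 of 6 B cell markers. The summed lists had medians of 2448 CPM in B6 and 667 in NZB cells for granulocytes, 1297 and 234 for erythroid cells and 1336 and 761 for myeloid cells, with overlapping groups, and their part in the resting difference was not tested. In the 2 sets of libraries that hold both haplotypes at rest, the median differences were -0.18 and -0.39 for the large subunit. They were -0.17 and -0.42 for the small subunit, where all genes had 0.01 and -0.24. The first of these sets held 4 B6 libraries and 1 NZB library at rest, and the other 2 B6 and 4 NZB. Over the 21 libraries 7 were called lower (Mrpl34, Mrpl42, Mrpl44, Mrpl51, Mrps17, Mrps25 and Mrps36, log2 differences of -0.34 to -1.03), where 3.88% of all genes were, and none higher. Fits without 1 library gave 0 to 5 calls. They gave 0 without resting B6 replicate 1, 3, 4 or 5 or resting NZB replicate 5, 1 without activated B6 replicate 2, 4 without resting B6 replicate 2, resting NZB replicate 2 or 3 or activated NZB replicate 1, and 5 without resting NZB replicate 4 or 6.

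Mrps17, the counterpart of a bacterial protein that binds rRNA at the base of the small subunit, was at 60.2, 71.6 and 88.8 CPM in resting B6 and at 49.5, 54.2 and 60.8 in resting NZB cells. The 2 groups overlapped by a narrow margin. The log2 difference was -0.42 ± 0.1 (SE, adjusted p from edgeR 0.0385), and without resting NZB replicate 5 it was -0.38 (adjusted p = 0.164). The call was also lost with the reads-per-UMI set as a term (adjusted p = 0.0957), with the second count table (0.114), without a filter on low counts (0.0846), with the resting libraries fitted alone (0.186) and after thinning (0.87), at differences of -0.46 to -0.37. Mrps17 rose on activation by 0.29 in B6 and 0.81 in NZB cells, and after activation it was at 84.1, 88.3 and 101 CPM in B6 and 83.0, 95.4 and 113 in NZB cells. Mrpl34 had the third of the smallest p-values at rest (-0.42, adjusted p = 0.057).

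Mrps6 rose in B6 cells like most of the family but differed from it in NZB cells. Its product is the counterpart of bacterial S6 of the small-subunit platform, and its gene is at chr16:91854965-91909592 (GRCm39, plus strand). Resting B6 libraries held 43.9, 49.6 and 56.0 CPM and activated ones 69.1, 81.0 and 91.1, with no overlap, for a log2 fold change of 0.7 ± 0.25 (SE, adjusted p from edgeR 0.0263). Resting NZB libraries held 51.0 to 67.7 CPM in 4 libraries, 127 in replicate 6 and 228 in replicate 5. Activated ones held 68.8, 94.3 and 98.2, so these groups overlapped only through resting replicates 5 and 6. The NZB response was -0.15 ± 0.26 (adjusted p = 0.655), and at rest Mrps6 was higher in NZB than in B6 cells by 1.02 ± 0.26 (adjusted p = 0.0392). Without replicate 5 this difference was 0.51 (adjusted p = 0.252), without replicate 6 it was 0.92 (adjusted p = 0.0502), and it was called in 15 of the 24 fits that leave out 1 library. The call was also lost over the 21 libraries (adjusted p = 0.0531), with the set as a term (0.153), with the second count table (0.0541), with the resting libraries fitted alone (0.196) and after thinning (0.495). Replicate 6 also held the most granulocyte marker RNA (17595 CPM) while replicate 5 held the least among resting NZB libraries (288), and the part of other cells in these levels was not tested. A protein-coding gene on the same strand, Gm49711, overlaps the end of Mrps6, so the reads of the 2 cannot be told apart here.

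In activated cells no difference between the haplotypes was called. Of the 74 genes 0 passed, and of all genes 0.0%, while 2 of the 74 and 327 of all genes had an unadjusted p under 0.05, and DESeq2 called 0 of the 74. The median difference was 0.11 for each subunit (all genes 0.01). Within the first set of libraries (5 B6, 2 NZB) it was 0.09 for the large and 0.1 for the small subunit, and within the second (1 B6, 2 NZB) -0.03 and -0.04. The smallest p-values belonged to Mrpl12 (0.3), Mrpl57 (0.25) and Mrps24 (0.26), each with an adjusted p of 1.0.

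Of 5 further mitoribosomal proteins 4 could be tested and 3 rose in both haplotypes. Dap3, a GTP-binding protein of the small subunit, rose from a median of 133 to 180 CPM in B6 cells and from 122 to 188 in NZB cells (log2 fold changes 0.41 and 0.51), Chchd1 rose by 0.58 and 0.97 and Aurkaip1 by 0.38 and 0.61. Ptcd3, at a few CPM, was at 0.13 and -0.03 and was not called.

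Of 15 translation factors tested, 1 rose in B6 and 5 rose in NZB cells, and none fell, where 22.4% of all genes rose in B6 and 25.2% in NZB cells. The rises in NZB cells were thus near the share of all genes and the rise in B6 cells below it. Tufm, the factor that brings aminoacyl-tRNA to the ribosome, rose by 0.39 (adjusted p from edgeR 0.0398) in B6 and 0.78 (adjusted p = 0.000334) in NZB cells. Tsfm, the guanine nucleotide exchange factor of Tufm, was at 0.18 in B6 cells, which was not called, and rose by 1.24 in NZB cells (adjusted p = 1.19e-07). At rest it was lower in NZB cells by a log2 difference of -0.74 (adjusted p = 0.0265), with medians of 38.4 CPM in B6 and 24.4 in NZB cells, and the difference between its responses was not called. The release factors Mtrf1 and Mtrf1l rose by 0.76 and 0.63 in NZB cells. Lrpprc, which protects mitochondrial mRNAs, rose by 0.5 in NZB cells and was at 0.1 in B6 cells. Oxa1l, which inserts the new proteins into the inner membrane, was at 0.19 and 0.16 and was not called.

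Of 29 genes tested for assembly of the mitoribosome and modification of its RNA, 4 rose and 4 fell in B6 cells and 7 rose and 6 fell in NZB cells. These counts were near or below the shares of all genes, of which 22.4% rose and 24.5% fell in B6 cells and 25.2% rose and 28.4% fell in NZB cells. Mterf4, which works with an rRNA methyltransferase in large-subunit assembly, rose by 0.55 and 0.95. Gtpbp6, which splits and helps to assemble ribosomes, fell from a median of 66.0 to 32.5 CPM in B6 and from 68.1 to 35.5 in NZB cells (log2 fold changes -0.84 and -1.01). Mrm1, a methyltransferase of the large rRNA, had the lowest value in B6 cells (-0.86), where it went from 22.5 to 11.7 CPM. Gtpbp10, at a few CPM, had the lowest value in NZB cells (-1.23, adjusted p from edgeR 0.0134).

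**Figure D5:**
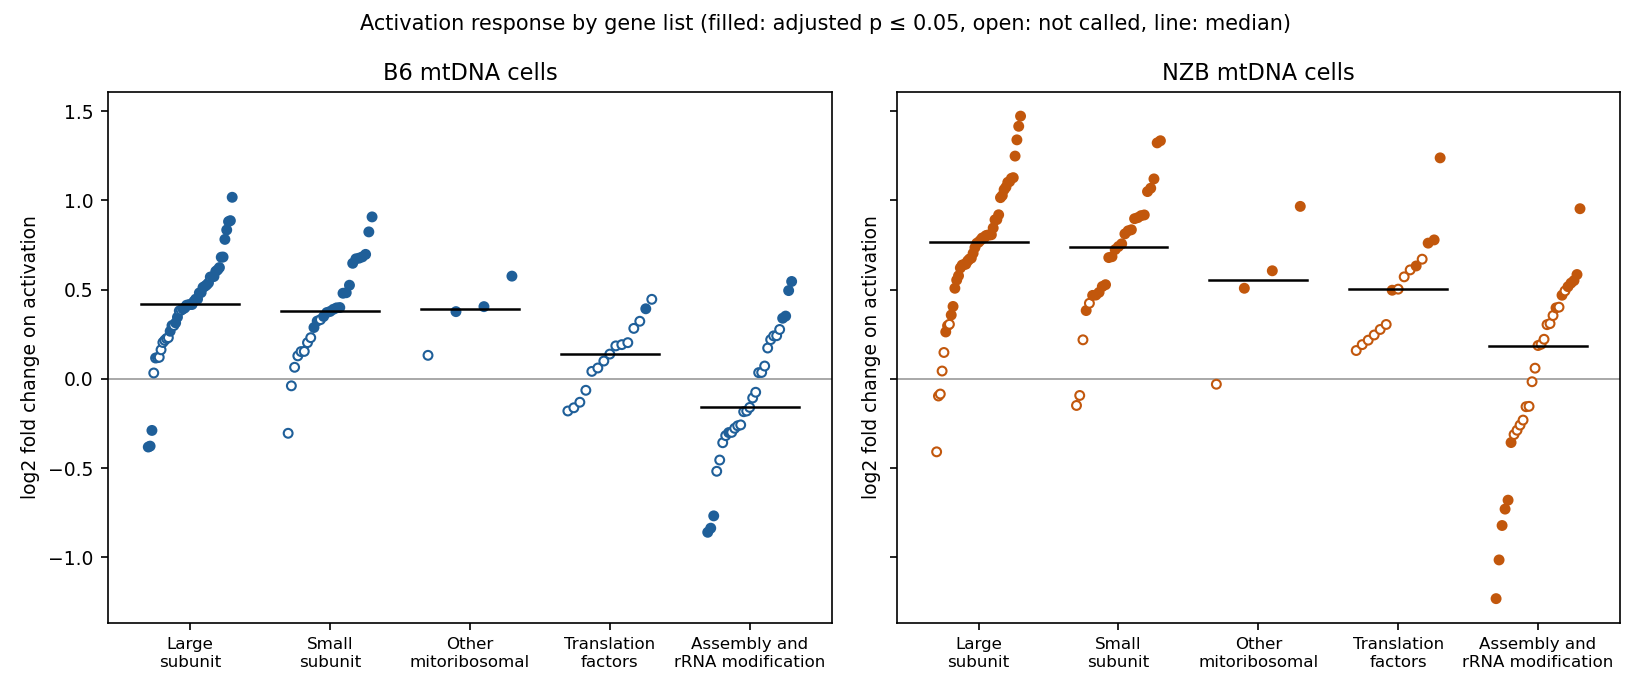
Log2 fold change on activation (y axis) of the genes tested in 5 lists (x axis), in B6 cells left and NZB cells right, sorted within each list, with the list's median as a line. Filled points are called at an adjusted p of at most 0.05. Both mitoribosomal subunits lie mostly above 0, and the assembly list lies on both sides of 0.

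In the genome the 78 genes are spread over many chromosomes, with 11 on chromosome 11 and 8 on chromosome 17. A start within 1000 bases of the start of a protein-coding gene on the other strand was found for 29 of the 78 (37.2%), against 10.2% of 21627 protein-coding genes in the table. Mrpl46 and Mrps11 share such a start on chromosome 7, with a log2 fold change of 0.22 (not called) and 0.38 in B6 cells and of 0.36 and 0.92 in NZB cells. In the 22 other pairs where both genes were tested, the mitoribosomal gene rose in 16 in B6 cells and in 20 in NZB cells. Of all genes tested, 22.4% rose and 24.5% fell in B6 cells, and 25.2% rose and 28.4% fell in NZB cells. The partners were near these shares, with 6 rises and 5 falls in B6 cells and 7 rises and 7 falls in NZB cells. Within these pairs, Mrpl49 rose by 0.42 and 0.81 while its neighbour Fau, which encodes a cytosolic ribosomal protein, fell (-0.42 and -0.48). Mrpl27 rose beside Eme1, a DNA repair gene with log2 fold changes of 2.17 and 3.14.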

How the data were processed

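Bulk MARS-seq, a 3′ end method with UMIs, was run on 24 libraries, and sample titles gave each library's haplotype, state and replicate. According to the paper's methods and the submitters' processing notes, the authors trimmed reads with cutadapt, dropped short ones, aligned them by STAR against Ensembl 3′ UTR stretches of 1000 bases on GRCm39, counted them per gene with HTSeq, removed repeats of a UMI and corrected for saturation. The authors deposited these UMI counts as unscaled whole numbers. Another deposited table, with higher counts, was read as counts before UMI removal. It served as an alternative and gave the reads per UMI. 1 column that matched no sample was not used.

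Counts were analysed in R 4.3.3 with edgeR 4.0.16 (TMM scaling, filterByExpr, quasi-likelihood test, 4 groups in one fit, Benjamini-Hochberg over all genes tested). DESeq2 1.42.0 was an alternative, and tables were made in Python 3.11.15. A call needed an adjusted p of at most 0.05. SE is the size of the log2 fold change divided by the square root of F. The fit across all genes was tested on simulated data. No pair of libraries in a group agreed within sampling noise (lowest chi-square over its degrees of freedom 2.77), and each was treated as a replicate. Separate preparations of the same cells could also differ by more than sampling noise, so this does not show separate animals. Gene positions are from a GRCm39 annotation and promoters from RefSeq on GRCm38.p6. Genes outside the annotation held 0.0272% of the UMIs. Of the 78 genes 21 have a protein-coding gene overlapping their last 1000 bases, 3 of them on the same strand (Mrps6, Mrps15, Mrps34). 6 pseudogenes with like symbols held 962 UMIs, against 488162 for the family.

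The members and lists were chosen with earlier results of these data known. Named genes are the 10 largest and 5 lowest called changes of each activation comparison, the 5 highest mean levels, the 3 smallest p-values of each other comparison, Mrps18a, Mrps18b, Mrps18c, Mrps30, Mrps36, Mrpl58 and Mrpl16, and for the other lists the largest rise and fall called, Tufm, Dap3, Lrpprc and Oxa1l. Genes named beyond this rule were chosen after their values were seen. Alternatives were other scalings, filters, tests, tables, fits of fewer libraries, a replicate block (numbers were not shown to pair samples), the set by reads per UMI as a term, thinning and a fold cut-off.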

Additional observations from a re-analysis of the deposited data

Results flagged for a closer look

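In groups of 6 libraries, a single library stood far from the others for 12 of 148 gene and group pairs examined, and chance alone marks about 1 in 20. Of the 12, 11 lie in resting NZB cells and 8 of those in replicate 2, the library with the fewest UMIs, where 1 UMI is worth 16.9 CPM. There Mrpl45 and Mrps18c were at 0.0 CPM, and a count of 0 in this library allows up to 58.4 UMIs in 1000000 (3 counts, counting error alone), above the 25.5 and 22.9 CPM of the nearest libraries. Mrpl32 was at 16.9 CPM with the nearest library at 67.2, Mrpl46 at 33.9 with the nearest at 52.1 and Mrps24 at 50.8 with the nearest at 120. In the same library Mrpl35 and Mrps36 were high at 16.9 CPM each, with the nearest libraries at 4.7 and 4.42, and Mrps18b was high at 33.9 CPM with the nearest at 2.69.

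Outside that library, Mrpl14 was low in resting NZB replicate 5 (45.8 CPM, nearest 67.8), Mrps18a was high in resting NZB replicate 1 (52.1 CPM, nearest 40.3), Mrps22 was high in resting NZB replicate 6 (45.4 CPM, nearest 26.6) and Mrps6 was low in activated NZB replicate 4 (68.8 CPM, nearest 90.4).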

How the results depend on the processing

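The number of genes called in B6 cells on activation was 52, and it went to 33 with the set by reads per UMI as a term, to 31 with that term over 21 libraries, to 5 with libraries thinned to the second smallest total and the smallest library left out and to 1 with a log2 fold change of 1 also needed. It was 43 to 58 under the other alternatives and 45 to 55 without 1 library. In NZB cells the 64 calls went to 27 when thinned and to 17 with the fold cut-off, and were 52 to 65 otherwise and 60 to 65 without 1 library. Thinning had a target of 641467 UMIs per library. The fitted values of Mrpl32 (-0.03) and Mrpl43 (-0.032) in NZB cells were then below 0, uncalled. So was that of Mrps18c in B6 cells (-0.195, against 0.684 in the main fit). The cause of these and the other changes was not tested.

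At rest the 2 calls went to 7 over 21 libraries, to 4 with a stricter filter, to 1 without a filter or with the fold cut-off, and to 0 with the second count table, with the resting libraries fitted alone, with the replicate block by title number, with the set as a term and when thinned, and to between 0 and 5 without 1 library. For the difference of responses the 0 calls went to 2 over 21 libraries. Its small-subunit median of 0.36 went to 0.22 over 21 libraries with a replicate block by label number. The 2 fits that join the 21 libraries with the set or the block were chosen after seeing the data.

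Replicate numbers were not shown to pair the samples: deviations of same-numbered libraries correlated at -0.16 to 0.25 for label numbers and -0.18 to 0.25 for title numbers. With the replicate block by label number 44 genes rose and 2 fell in B6 cells and 52 rose in NZB cells, and by title number 46 rose and 3 fell and 63 rose. Haplotype comparisons could not be fitted with the label number, since each number belongs to 1 haplotype, and the difference of responses already uses every library, so it was not run again on the libraries compared.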
